A study of Rattus norvegicus with 28 samples.

Results

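The genes described here encode the initiation and elongation factors of cytosolic protein synthesis and the proteins named with them. They are the 62 of 30178 genes in the expression table whose symbols begin with Eif1 to Eif6 or with Eef1 or Eef2, leaving out the eIF2 kinases (Eif2ak1 to Eif2ak4). The set also holds repressors, kinases and methyltransferases that act on the factors. Expression was measured by RNA-seq of polyadenylated RNA in NRK-49F, a rat kidney fibroblast line, in 4 groups of 2 libraries. All cells were grown in 10% serum and, by the labels' protocol, starved in 0.2% serum for 24 h before treatment. The control group received no TGF-β, and no time is given for it. The second group received TGF-β1, a cytokine that drives fibroblasts to make matrix, for 48 h, at a dose the labels print as 5 ng per µL. The third group received TGF-β1 for 48 h with methionine restriction (MetR), a medium with 30 µM methionine where the control medium for it had 200 µM. The fourth group received TGF-β1 for 48 h with an siRNA against the homeobox gene Hoxc8 (siHoxc8). No group had MetR or siHoxc8 without TGF-β, and no non-targeting siRNA is named for the RNA-seq libraries. The labels name a single cell line and give no word on whether a group's 2 libraries are from separate cultures, and the p-values measure the spread between these libraries, which may be technical.

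Translation starts when eIF2 carries the initiator methionyl-tRNA to the small ribosomal subunit, eIF3 and eIF1 hold that subunit open for scanning, and the eIF4F complex (cap binder eIF4E, scaffold eIF4G and helicase eIF4A) brings in the capped mRNA. The 4E-binding proteins take eIF4E away from eIF4G when mTORC1 signalling is low, as it is when amino acids are scarce, and eIF2 loses activity when its alpha subunit is phosphorylated and its exchange factor eIF2B is blocked. In elongation, eEF1A brings each aminoacyl-tRNA to the ribosome, the eEF1B subunits reload it with GTP, and eEF2 moves the ribosome along until eEF2 kinase inactivates it.

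Between 15118113 and 20146870 reads per library were recovered from the FPKM values (fragments per kilobase of transcript and sequencing depth), a range of 1.33-fold. Of 8 listed fibroblast markers, 7 were at or above 1 FPKM in all 8 libraries, and Thy1 was listed at 0 throughout. The summed FPKM of 5 epithelial markers was 1.14 to 1.19 in the control, 1.44 to 1.47 with TGF-β, 9.12 to 9.29 with MetR and 0.219 to 0.382 with siHoxc8, with Epcam at 0. The 4 listed endothelial markers summed to at most 0.908, with Kdr at 0, and the 5 leukocyte markers to at most 2.73. The part of these cell types in the results was not tested. Hoxc8 itself was at 1.12 and 1.34 FPKM in the control, 4.32 and 5.01 with TGF-β, 0.417 and 0.614 with MetR and 0.463 and 0.0771 with siHoxc8, so it was low in the siRNA libraries and also in the MetR libraries. The MetR libraries differed most from each other. The standard deviation of a library within its pair was taken from the log2 differences of the translation factors and includes any shift they share. It was 0.321 with MetR, against 0.0542 in the control, 0.159 with TGF-β and 0.0685 with siHoxc8.

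At the level of mRNA these were abundant genes. Their median over the 8 libraries was 69.4 FPKM for the 61 that were tested, against 12.8 FPKM for all 12315 genes tested. Of the 62, 24 averaged at least 100 FPKM, 32 lay between 10 and 100, 5 between 1 and 10 and 1 below 1. Eef1a1, the usual form of the tRNA carrier eEF1A, ranked highest with a mean of 4145 FPKM, followed by the translocase Eef2 (1152 FPKM) and the eEF1B scaffold Eef1g (1014 FPKM). Eef1a2, the form of eEF1A used in muscle and neurons, was the single gene below the filter for testing (at least 1 FPKM in 2 libraries), at 0.0329 to 0.246 FPKM. The lowest read number behind a tested translation factor in any library was 25. The 62 genes together held 3.02% and 3.01% of the summed FPKM in the control, 2.17% and 2.25% with TGF-β, 1.70% and 1.96% with MetR and 2.80% and 2.73% with siHoxc8. Leaving out Eef1a1, these shares were 1.60% and 1.60%, 1.47% and 1.50%, 1.28% and 1.57%, and 1.82% and 1.79% in the same order, so Eef1a1 by itself made most of the difference between the control and the TGF-β libraries.

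**Figure D1:**
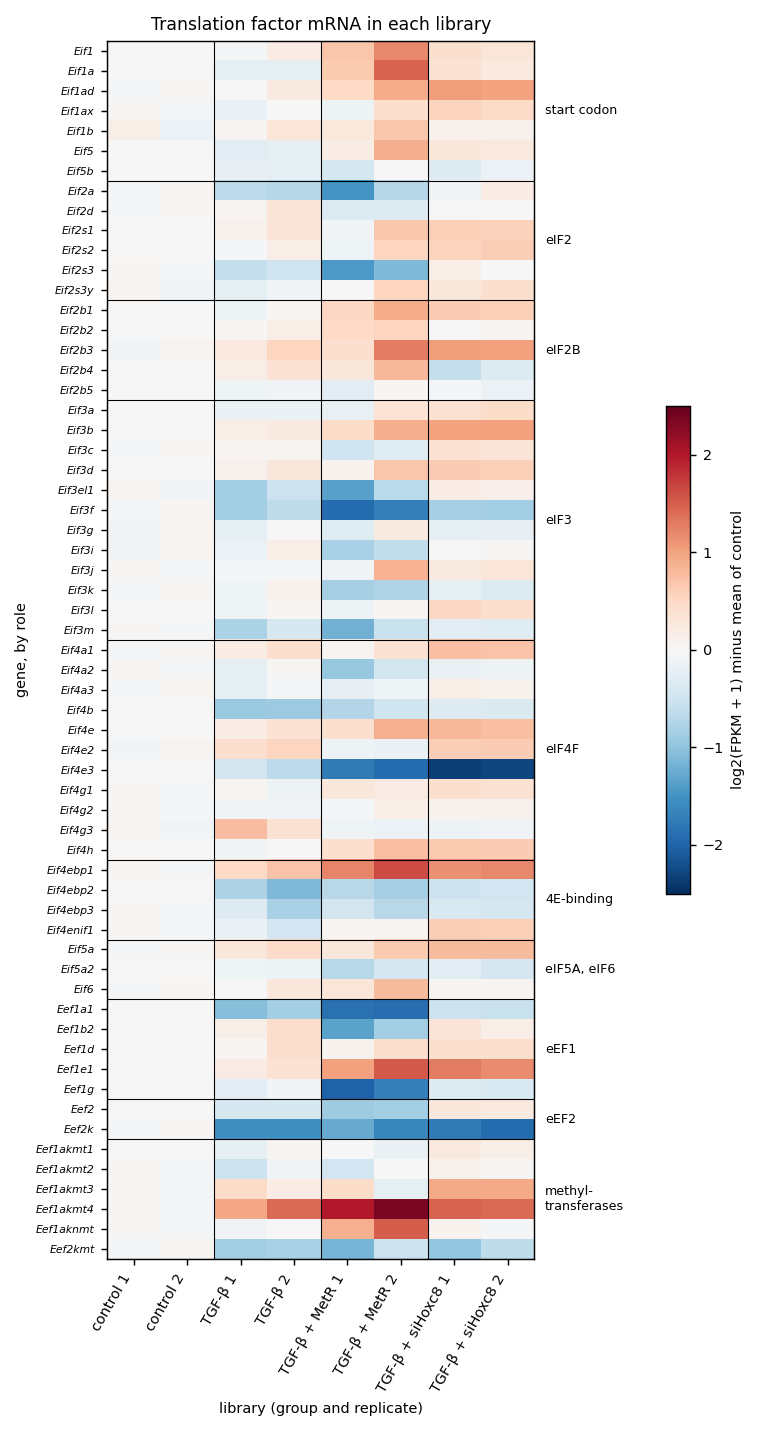
Colour gives log2(FPKM + 1) minus the mean of the control libraries for the 61 tested genes (rows, grouped by role) in each of the 8 libraries (columns). Eef1a1, Eef1g, Eif3f and Eif4e3 are blue in both MetR libraries, Eef1akmt4 and Eif4ebp1 are red in every TGF-β-treated library, and the MetR library of replicate 2 is redder than that of replicate 1.

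Several translation factor mRNAs are known to begin with a C and a pyrimidine tract (a 5′ terminal oligopyrimidine or TOP sequence), through which mTORC1 and Larp1 govern their translation and storage. For that reason the bases around the annotated starts were read from RefSeq (GRCr8, while the expression values were made on rn6). A single start was listed for 52 of the 62 genes. The window took 15 bases on each side of the start, in the orientation of the mRNA, and was searched for a C followed by C or T only, 7 letters or longer. Such a run stood in 15 of the 52 windows (28.8%), against 13.3% of all 24206 promoters of the table. A match describes letters in this window and is neither a measured cap site nor a cause. A window without a match does not show that the mRNA lacks a run, because cap sites were not measured. The 6 genes with a run that were lowered by MetR are printed first, and then 3 for contrast. These are Eef1g, lowered without a run of this definition in its window, Eif1, raised with one, and Eif5, raised without. The Eef1g window opens with a stretch of C and T that lacks the leading C. The base before that stretch lies outside the window, so Eef1g is not a clear case without a run. Capitals mark the run, and the annotated start is the base after the first 15.
Eef1a1, chr8:88225055-88225084, minus strand: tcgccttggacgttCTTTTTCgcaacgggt
Eef1b2, chr9:72074076-72074105, plus strand: tttccggccggtcccggCCCTTTTTCTCCC
Eif2s3, chrX:62933685-62933714, minus strand: ggcggcagccgagcattttCCTTTTCTCTC
Eif3f, chr1:172369047-172369076, plus strand: tcacgCCCTTCCgttctagCCTCTCTCTTT
Eif3i, chr5:147226896-147226925, minus strand: cagtCTTCTTCCggtcctactcacattgcc
Eif3k, chr1:93397473-93397502, minus strand: tCTTTTTCTTCCggtccttgagtacttagt
Eef1g, chr1:215289800-215289829, plus strand: tttctctgcggaatcaccatggcggctggg
Eif1, chr10:85747122-85747151, plus strand: tacaggcgccgCCCCTCCgccccagtcact
Eif5, chr6:136410318-136410347, plus strand: cccggggccgagggtagcttgagcgcggcg
In Eef1b2 and Eif2s3 the run lies after the annotated start, in Eif3i and Eif3k before it, in Eif3f there is a run on each side, and in Eef1a1 and Eif1 the run crosses it. TGATGNAA, the letters of the composite element bound by ATF4 and its partners, was searched on both strands of the 300 promoter bases and stood in 2 of the 52 genes (3.85%), Eif2s2 and Eif3g, against 3.74% of all promoters.

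The first comparison asked what TGF-β changed in these fibroblasts. The kinase of eEF2, the tRNA carrier Eef1a1, the repressor Eif4ebp2 and the helicase cofactor Eif4b were lower with TGF-β, and few genes rose. Of the 5 eEF1 genes tested, Eef1a1 alone was called, and the median of the 5 was 0.23 on the log2 scale. In limma's test at an adjusted p under 0.05, 4 of 61 rose and 11 fell, while of all genes tested 10.3% rose and 28.6% fell. At 24.6%, the share of translation factors called was below that of all genes (38.9%). Their median log2 fold change was -0.04, beside -0.19 over all genes. In bulk RNA, fewer cells of a type and less RNA per cell cannot be told apart.

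Eef2k, the calcium-dependent kinase that stops eEF2, changed most: 27.2 and 29.1 FPKM in the control, 9.08 and 9.01 with TGF-β, 11.1 and 8.46 with MetR and 7.54 and 6.63 with siHoxc8. Every TGF-β-treated library stood far below both controls, and the TGF-β mean was 3.11-fold lower (log2 fold change -1.54 ± 0.14, limma adjusted p = 0.000281). Its target Eef2 was at 1308 and 1319 FPKM in the control and 990.2 and 1000.0 with TGF-β (-0.40 ± 0.10, limma adjusted p = 0.0155), and after median-ratio rescaling it was not called (-0.18, limma adjusted p = 0.178). The ratio of Eef2 to Eef2k in FPKM moved from 48.2 and 45.3 to 109 and 111. Eef1a1 was at 6693 and 6695 FPKM in the control and 3214 and 3705 with TGF-β (-0.96 ± 0.13, limma adjusted p = 0.00126). Reads of Eef1a1 can be split with its many processed copies in the genome, so its level is less certain than that of a single-copy gene. Eef2kmt, the methyltransferase of eEF2, fell from a low level, 3.60 and 3.87 FPKM, to 1.59 and 1.71 (-0.84 ± 0.22, limma adjusted p = 0.021). Eef1akmt4, a lysine methyltransferase of eEF1A, had the largest rise: 4.27 and 4.12 FPKM in the control and 9.18 and 12.9 with TGF-β, 2.63-fold higher (1.19 ± 0.18, limma adjusted p = 0.00202).

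Among the initiation factors, the cap-binding side moved in both directions. Eif4b, which stimulates the eIF4A helicase, was at 125 and 128 FPKM in the control and 66.1 and 67.0 with TGF-β (-0.91 ± 0.10, limma adjusted p = 0.000622), and the groups did not overlap. Of the 4E-binding proteins, Eif4ebp1 rose from 59.0 and 55.2 to 81.0 and 93.6 FPKM (0.60 ± 0.15, limma adjusted p = 0.0162), whereas Eif4ebp2 fell from 39.5 and 38.6 to 22.5 and 17.6 (-0.94 ± 0.13, limma adjusted p = 0.00135) and Eif4ebp3 from 13.7 and 13.0 to 10.5 and 7.21 (-0.57 ± 0.17, limma adjusted p = 0.0324). The repressors of 1 family thus moved in opposite directions while eIF4E itself, 28.2 and 27.8 FPKM in the control and 32.1 and 36.02 with TGF-β, did not pass the test (0.27 ± 0.16, limma adjusted p = 0.211). The scaffold Eif4g3 (0.58 ± 0.13) and the translational repressor Eif4e2, a cap binder that does not hold eIF4G (0.48 ± 0.10), rose, and the little-studied cap binder Eif4e3 fell (-0.56 ± 0.13). Of 12 eIF3 subunits, 2 fell and the other 10 were not called: Eif3f went from 225 and 234 to 126 and 148 FPKM (-0.75 ± 0.11, limma adjusted p = 0.00224), and the row named Eif3el1 fell by 0.70 on the log2 scale. RefSeq now gives Eif3el1 also as a synonym of Eif3e, and the genome holds Eif3e pseudogenes, so this row is uncertain. Eif2s3, the subunit of eIF2 that binds GTP and the initiator tRNA, fell from 42.0 and 39.4 to 26.8 and 28.6 FPKM (-0.54 ± 0.13, limma adjusted p = 0.0145); the Y-linked copy Eif2s3y, with which it can share reads, was at 32.6 and 29.7 and 26.2 and 29.8 FPKM (-0.15 ± 0.18, limma adjusted p = 0.526). The 7 genes of the start codon group (log2 fold changes -0.26 to 0.19) and the 5 of eIF2B (-0.09 to 0.39) did not pass the limma test. At an unadjusted p under 0.05 and by limma-voom on recovered reads their counts were also 0. After median-ratio rescaling 1 of the 5 eIF2B genes was called higher, and the start codon count stayed at 0.

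The calls of Eef2k, Eif3f, Eif4b, Eif4ebp2 and Eef1akmt4 were kept under all 18 alternatives tried, and the other 10 were lost under at least 1. With each library rescaled by its median ratio to a common reference, which moves the median of all genes from -0.19 to 0, 14 translation factors rose and 6 fell, against 18.5% and 17.4% of all genes. Among the 5 eEF1 genes, 3 (Eef1b2, Eef1d and Eef1e1) were then called higher and Eef1a1 lower. Of the eIF3 subunits 2 were called higher and 1 lower, and of the eIF2 genes 1 higher and 0 lower. In the cap-binding group 4 were called higher and 1 lower. The falls of Eif2s3, Eif3el1, Eif4e3 and Eif4ebp3 were not called after rescaling. Without control replicate 1, 1 rose and 5 fell, and without control replicate 2, 2 rose and 5 fell. Without TGF-β replicate 2, 7 fell, and without either MetR library, 10 rose. Eif4ebp1 lost its call without control replicate 1 or 2 or TGF-β replicate 2 (limma adjusted p 0.0702 to 0.0995), Eif4g3 without either control library (0.0541 to 0.0894) and Eif4e2 without control replicate 1 (0.0804). Among the falls, Eef2 was lost without either control or either siHoxc8 library (0.0501 to 0.118), Eif2s3 without either control library or TGF-β replicate 1 (0.0638 to 0.1004), Eef2kmt without any single control or TGF-β library (0.0764 to 0.104), Eif4e3 without either control library or TGF-β replicate 2 (0.0643 to 0.0888) and Eif4ebp3 without 5 of the 8 libraries in turn (0.0589 to 0.152). Eif3el1 was lost without 6 of the 8 (0.0578 to 0.169).

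**Figure D2:**
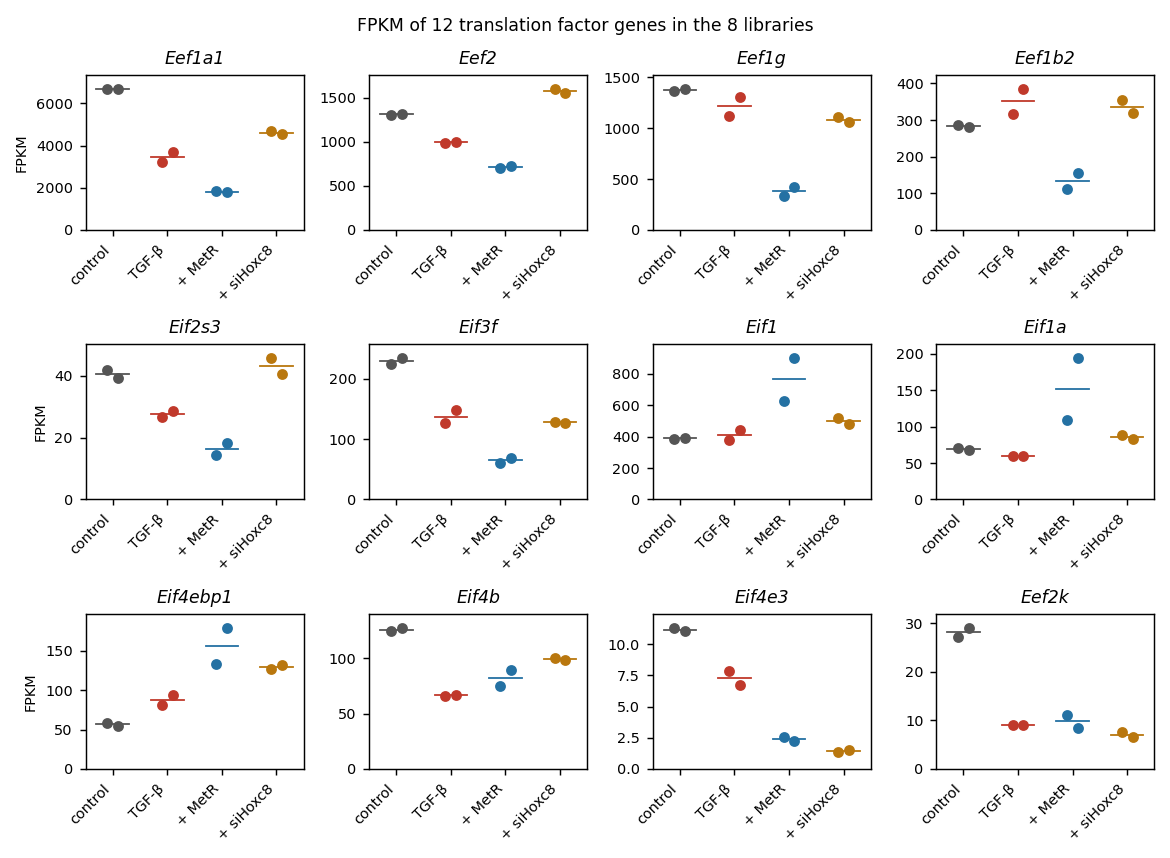
Each panel shows the FPKM of 1 gene (linear axis from 0) in the 8 libraries, with points for libraries and a bar for the mean of each group of 2. The 4 elongation factors of the top row are lowest with MetR, Eif4ebp1 is lowest in the control, and Eef2k is near 10 FPKM in every TGF-β-treated group against 27.2 and 29.1 in the control.

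The second comparison asked what methionine restriction changed under TGF-β, with both groups given the cytokine. With MetR, 3 of the 5 eEF1 genes tested (Eef1a1, Eef1b2 and Eef1g) and Eef2 were lower, while Eef1e1 was higher and Eef1d was not called. Higher too were 4 of 7 start codon genes and 2 of 5 eIF2B subunits, and eIF3 and eIF4F subunits were called in both directions. With median-ratio rescaling 1 eIF2B subunit was called higher, and 4 eIF3 subunits were called lower and 0 higher. Of 61 genes, 14 rose and 15 fell, beside 34.8% rising and 19.0% falling of all genes tested. The share called, 47.5%, was under the 53.9% of all genes. The median log2 fold change of the translation factors was 0.08, beside 0.18 over all genes. After median-ratio rescaling 10 rose and 16 fell, against 25.7% and 26.5% of all genes, and the median was -0.13. The summed epithelial markers were higher in the same MetR libraries (9.12 to 9.29 FPKM, against 1.44 to 1.47 with TGF-β). Krt7 (6.48 and 5.62 FPKM) and Cdh16 (2.53 and 2.76) made most of that sum, while Cdh1 and Epcam were listed at 0 in both MetR libraries, and the markers' part in these changes was not tested.

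The 2 largest falls were of eEF1B subunits. Eef1g, the scaffold of the eEF1B exchange complex, was at 1362 and 1389 FPKM in the control, 1125 and 1304 with TGF-β, 338 and 422 with MetR and 1107 and 1062 with siHoxc8. Both MetR libraries lay far below all 6 others, and their mean was 3.19-fold below that with TGF-β (log2 fold change -1.68 ± 0.14, limma adjusted p = 0.000135). Eef1b2, the exchange subunit that reloads eEF1A with GTP, was at 287 and 281 FPKM in the control, 316 and 386 with TGF-β, 112 and 154 with MetR and 354 and 318 with siHoxc8 (-1.40 ± 0.17, limma adjusted p = 0.000522). It too was lowest in the MetR libraries, while the related exchange subunit Eef1d was at 121 and 154 FPKM with TGF-β and 124 and 157 with MetR and was not called (0.03 ± 0.15, limma adjusted p = 0.872). Eef1a1 fell further, from 3214 and 3705 FPKM to 1826 and 1799 (-0.93 ± 0.13, limma adjusted p = 0.000897), and Eef2 from 990.2 and 1000.0 to 707 and 724 (-0.48 ± 0.10, limma adjusted p = 0.00495). With quantile normalization, which gives the libraries 1 shared distribution, the Eef2 value was 0.05 and its direction turned. Eef2k was at 11.1 and 8.46 FPKM, as low as with TGF-β (0.09 ± 0.14, limma adjusted p = 0.599). Summed over the 6 eEF1 genes, the share of all FPKM was 1.05% and 1.12% with TGF-β and 0.560% and 0.564% with MetR, beside 1.81% and 1.80% in the control and 1.32% and 1.27% with siHoxc8.

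Other genes of the elongation group went up. Eef1e1, a scaffold of the multi-tRNA synthetase complex that carries an eEF1-like domain, was at 17.1 and 16.8 FPKM in the control, 19.7 and 22.2 with TGF-β, 35.6 and 51.3 with MetR and 42.8 and 39.7 with siHoxc8 (1.00 ± 0.16, limma adjusted p = 0.00195). Eef1aknmt, also known as Mettl13, which methylates the N terminus and a lysine of eEF1A with S-adenosylmethionine as donor, was at 8.85 and 8.39 FPKM in the control, 8.04 and 8.63 with TGF-β, 16.9 and 26.5 with MetR and 9.24 and 8.25 with siHoxc8 (1.25 ± 0.19, limma adjusted p = 0.00144). Both MetR libraries were above the other 6, which lay between 8.04 and 9.24 FPKM. Eef1akmt4 rose again, from 9.18 and 12.9 FPKM to 19.7 and 25.8 (0.99 ± 0.18, limma adjusted p = 0.00276). The other 4 methyltransferases, Eef1akmt1, Eef1akmt2, Eef1akmt3 and Eef2kmt, were not called, with log2 fold changes from -0.22 to 0.07.

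Factors of start codon recognition were raised or not called. Eif1, which keeps the scanning ribosome open until it meets an AUG, was at 386 and 395 FPKM in the control, 377 and 444 with TGF-β, 630.5 and 900.5 with MetR and 518 and 479 with siHoxc8 (0.88 ± 0.17, limma adjusted p = 0.00418). Eif1a, whose product binds the ribosomal A site during scanning, was at 59.0 and 59.4 FPKM with TGF-β and 109 and 194 with MetR, 2.56-fold higher (1.28 ± 0.23, limma adjusted p = 0.0028). Its close relative Eif1ax was not called (0.22 ± 0.17, limma adjusted p = 0.301), and reads can be shared between the pair, as between Eif1 and Eif1b. Eif5, the GTPase activator of eIF2, went from 63.5 and 66.5 to 88.2 and 148 FPKM (0.80 ± 0.21, limma adjusted p = 0.0135), and Eif1ad, a nuclear eIF1A-like protein, from 29.4 and 34.4 to 41.6 and 56.8 (0.60 ± 0.15, limma adjusted p = 0.0126). The calls of Eif5 and Eif1ad depended on single TGF-β libraries: without TGF-β replicate 1 or 2 the limma adjusted p of Eif5 was 0.0573 to 0.0688, and without replicate 1 that of Eif1ad was 0.0766. Eif5b, which joins the ribosomal subunits, was not called (0.01 ± 0.14, limma adjusted p = 0.979). In all 4 called genes of this group the MetR library of replicate 2 was the higher one.

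The calls among the eIF2 genes were falls and those among the eIF2B genes rises, beside 19.0% falling and 34.8% rising of all genes tested. Of 6 tRNA carriers, 2 fell: Eif2s3, from 26.8 and 28.6 FPKM to 14.5 and 18.3 (-0.73 ± 0.13, limma adjusted p = 0.00259), and Eif2d, an alternative carrier that also acts after termination, from 24.4 and 29.3 to 18.3 and 18.5 (-0.52 ± 0.11, limma adjusted p = 0.00531). Eif2s1, the alpha subunit whose phosphorylation halts initiation, was at 79.8 and 92.2 and 70.2 and 118 FPKM (0.08 ± 0.21, limma adjusted p = 0.769), so its MetR libraries lay on both sides of the TGF-β pair. The beta subunit Eif2s2 was not called either (0.15 ± 0.19, limma adjusted p = 0.545). Of 5 subunits of eIF2B, the regulatory alpha subunit Eif2b1 rose from 13.7 and 15.7 to 22.0 and 29.7 FPKM (0.76 ± 0.15, limma adjusted p = 0.00376) and Eif2b2 from 25.7 and 28.4 to 36.2 and 37.0 (0.42 ± 0.09, limma adjusted p = 0.00646), while the catalytic subunit Eif2b5 was at 21.6 and 22.3 and 19.5 and 24.4 (-0.01 ± 0.12, limma adjusted p = 0.969). After median-ratio rescaling 3 of the 6 carriers fell, against 26.5% of all genes. Of the 5 eIF2B subunits 1, Eif2b1, then rose, against 25.7% of all genes, and Eif2b2 was not called.

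Of 12 eIF3 subunits, 4 fell, 1 rose and 7 were not called. Eif3f, a subunit of the module at the outer edge of eIF3, was at 225 and 234 FPKM in the control, 126 and 148 with TGF-β, 60.1 and 69.4 with MetR and 129 and 126 with siHoxc8 (-1.07 ± 0.11, limma adjusted p = 0.000331). Its MetR libraries were the lowest of the 8, with a mean 2.11-fold below that with TGF-β. Eif3k, also an outer subunit (-0.79 ± 0.10, limma adjusted p = 0.000763), Eif3i (-0.71 ± 0.13, limma adjusted p = 0.00285) and Eif3c, part of the core (-0.47 ± 0.10, limma adjusted p = 0.00486), fell as well. Eif3b, a scaffold subunit that binds Eif3i, rose from 92.7 and 96.5 to 114 and 155 FPKM (0.49 ± 0.14, limma adjusted p = 0.0207). The largest subunit, Eif3a, was at 107 and 107 FPKM with TGF-β and 106 and 154 with MetR and was not called (0.25 ± 0.16, limma adjusted p = 0.232). The 1 rise within the complex, of Eif3b, depended on the scaling: after median-ratio rescaling 4 of the 12 fell and 0 rose. Its call was also lost without TGF-β replicate 1 or 2, with log2 fold changes of 0.46 and 0.51.

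At the cap, the alternative factors fell and the repressor Eif4ebp1 rose. Eif4ebp1 was at 59.0 and 55.2 FPKM in the control, 81.0 and 93.6 with TGF-β, 134 and 179.6 with MetR and 128 and 132 with siHoxc8 (0.83 ± 0.15, limma adjusted p = 0.00274). The 2 MetR libraries were the highest, and the ratio of Eif4ebp1 to Eif4e in FPKM was 2.09 and 1.98 in the control, 2.52 and 2.60 with TGF-β, 3.59 and 3.41 with MetR and 2.53 and 2.75 with siHoxc8. Eif4e itself was at 32.1 and 36.02 FPKM with TGF-β and 37.3 and 52.7 with MetR (0.37 ± 0.16, limma adjusted p = 0.0796). Eif4e3 was at 11.3 and 11.0 FPKM in the control, 7.85 and 6.72 with TGF-β, 2.59 and 2.21 with MetR and 1.37 and 1.49 with siHoxc8 (-1.29 ± 0.13, limma adjusted p = 0.000272), Eif4e2 fell from 32.7 and 35.8 to 22.1 and 21.6 (-0.62 ± 0.10, limma adjusted p = 0.00152) and Eif4g3 from 49.6 and 37.9 to 26.6 and 26.0 (-0.70 ± 0.13, limma adjusted p = 0.00347). The main scaffold Eif4g1 was not called (0.27 ± 0.10, limma adjusted p = 0.0507). The helicase Eif4a2 fell (-0.61 ± 0.17, limma adjusted p = 0.0175; 0.105 without TGF-β replicate 2), whereas its more abundant paralog Eif4a1 did not pass the test (-0.08 ± 0.13, limma adjusted p = 0.621), and the helicase cofactor Eif4h rose from 108 and 113 to 149.7 and 193 FPKM (0.62 ± 0.13, limma adjusted p = 0.00488). Eif4b (0.30 ± 0.10, limma adjusted p = 0.0413) and the eIF4E transporter Eif4enif1 (0.38 ± 0.12, 0.0349) were each called, but both lost the call without 7 of the 8 libraries in turn (0.0807 to 0.106 and 0.0535 to 0.145). Eif5a, the hypusine-bearing factor that relieves stalled ribosomes, was not called (0.09 ± 0.14, limma adjusted p = 0.62), its tissue-restricted paralog Eif5a2 fell from 7.39 and 7.25 to 4.62 and 5.63 FPKM (-0.45 ± 0.12, limma adjusted p = 0.0183; 0.0573 to 0.0633 without TGF-β replicate 1 or 2), and Eif6, which keeps the large subunit from joining early, was not called (0.41 ± 0.17, limma adjusted p = 0.0774).

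**Figure D3:**
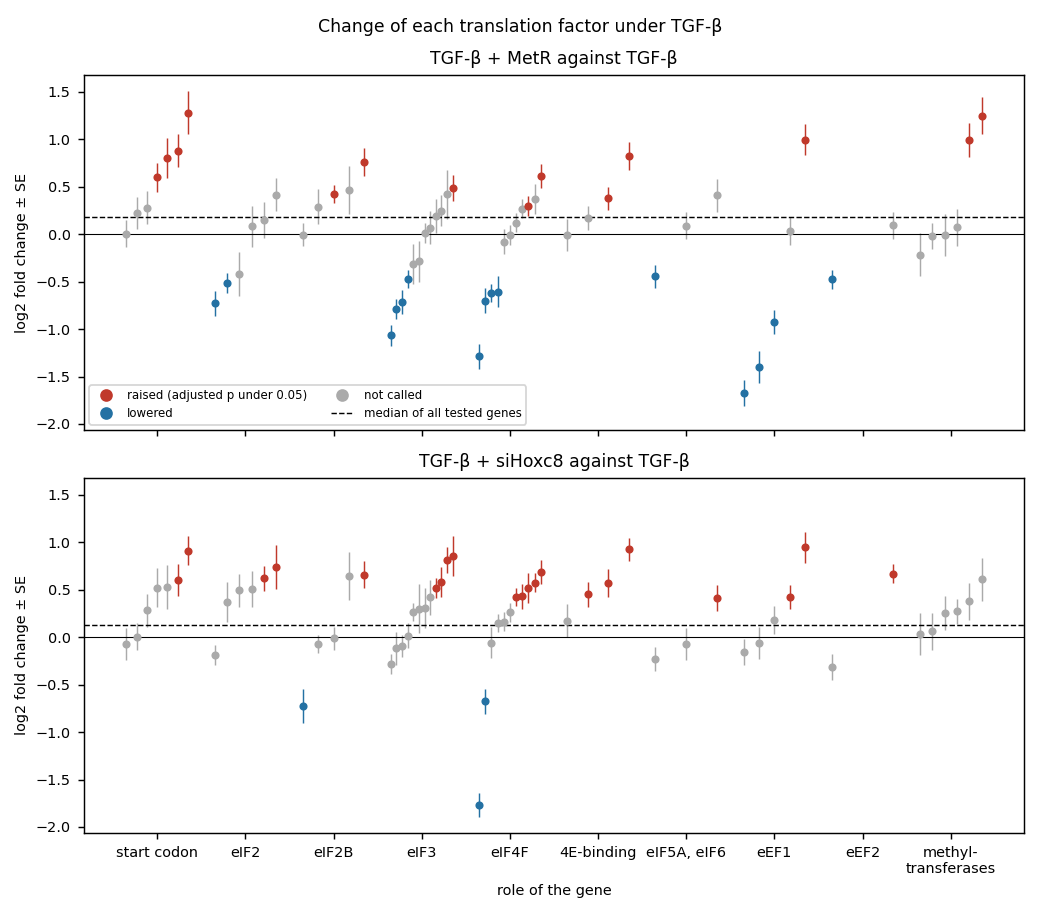
Log2 fold changes on the log2(FPKM + 1) scale, with standard errors, of the 61 tested genes by role, for MetR against TGF-β (top) and siHoxc8 against TGF-β (bottom), with 2 libraries a group. The lowest points of the top panel are Eef1g, Eef1b2 and Eif4e3, the lowest of the bottom panel is Eif4e3 at -1.77, and the dashed line is the median of all tested genes, 0.18 and 0.13.

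The pair of MetR libraries differed in level, and MetR replicate 2 was higher than replicate 1 for 51 of the 61 genes (83.6%, against 58.6% of all genes tested). The TGF-β pair leaned the same way, with replicate 2 higher for 47 genes (77.0%, against 54.8% of all genes tested). In the control pair replicate 2 was higher for 33 genes and in the siHoxc8 pair for 22. Replicate 1 had 21 genes above both TGF-β libraries and 29 below both (median log2 difference from the TGF-β mean -0.06), and replicate 2 had 36 above and 18 below (0.23). Eif3j, a loosely held eIF3 subunit, was at 25.6 and 50.3 FPKM in the MetR libraries, and Eif2s1, Eif2b3 and Eif1a were spread widely too. Without MetR replicate 1, 27 translation factors rose and 16 fell against TGF-β, and without MetR replicate 2, 13 rose and 18 fell. The falls of Eef1g, Eef1b2, Eif3f, Eif3i, Eif3k, Eif2s3, Eif4e2, Eif4e3 and Eif4g3 and the rises of Eif1, Eif1a, Eif2b1, Eif4h, Eif4ebp1, Eef1e1, Eef1akmt4 and Eef1aknmt were called under all 18 alternatives; the calls of the other 12 genes were lost under at least 1. Eef1a1 lost its call where no filter on low values was applied. That setting tests 19435 genes in place of 12315 and fits the variance trend over all of them, and the cause of the loss was not tested. In a fit of only the 2 groups compared, 9 rose.

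**Figure D4:**
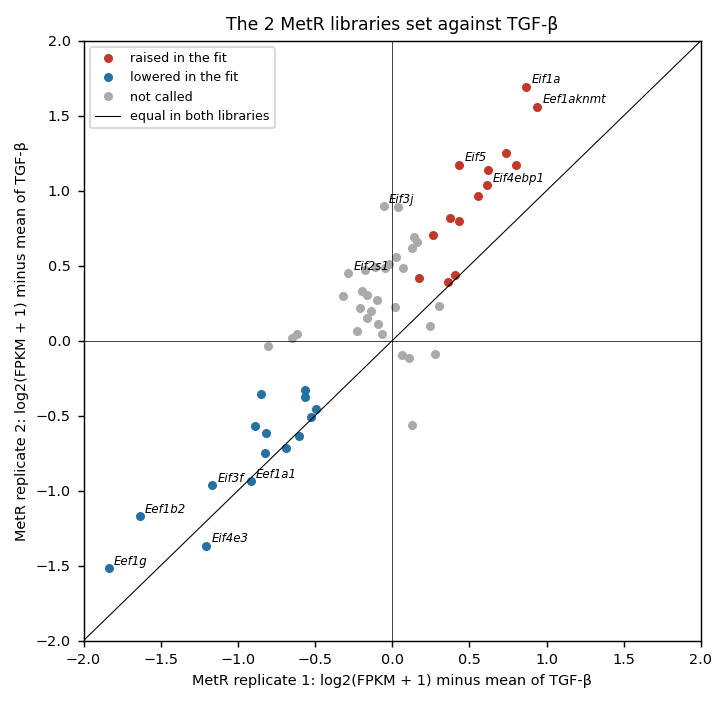
Each point is 1 of the 61 genes, placed by the difference in log2(FPKM + 1) from the TGF-β mean in MetR replicate 1 (horizontal) and replicate 2 (vertical), with the line of equal values. Eef1g, Eef1b2, Eif3f and Eef1a1 are low in both libraries, Eif1a and Eef1aknmt are high in both and higher in replicate 2, and most points lie above the line.

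Set beside the sequences printed above, the 15 genes with a pyrimidine run in the window had a median log2 fold change of -0.29 in MetR against TGF-β. The 36 tested genes without one in the window had 0.13, and some of them may carry a run at a cap site that was not measured. Over all tested genes with a listed promoter the medians were 0.14 (1082 genes with a run) and 0.19 (7094 without). Of the genes with a run, 6 fell, 3 rose (Eif1, Eef1e1 and Eif4h) and 6 were not called, and of those without one 6 fell, 7 rose and 23 were not called. In TGF-β against control the medians with and without a run were -0.08 and -0.04, and in siHoxc8 against TGF-β 0.38 and 0.28. The genes with a run include 5 of the eIF3 subunits, so they are not independent of the roles described above, and no test was made.

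The third comparison asked what silencing Hoxc8 changed under TGF-β. Most called translation factors were higher with siHoxc8: 21 of 61 rose and 3 fell, beside 28.1% rising and 15.7% falling of all genes tested. The share called was 39.3%, against 43.8% of all genes. The median log2 fold change was 0.31, beside 0.13 over all genes. After median-ratio rescaling 13 rose and 7 fell, against 21.0% and 22.1% of all genes, with a median of 0.14.

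Eef2 was at 990.2 and 1000.0 FPKM with TGF-β and 1604 and 1560.5 with siHoxc8 (0.67 ± 0.10, limma adjusted p = 0.00147), the highest level of any group, and with Eef2k at 7.54 and 6.63 FPKM the ratio of the pair reached 213 and 235. Eef1a1 rose from 3214 and 3705 to 4701 and 4524 FPKM (0.42 ± 0.13, limma adjusted p = 0.0316), still below the control. After median-ratio rescaling Eef1a1 was not called, and Eef2k was called lower. Eef1e1 rose from 19.7 and 22.2 to 42.8 and 39.7 (0.95 ± 0.16, limma adjusted p = 0.00322), and Eef1g and Eef1b2, the genes lowest with MetR, were not called (-0.16 ± 0.14 and -0.06 ± 0.17). The 6 methyltransferases had log2 fold changes from 0.03 to 0.61 and 0 calls by limma, with 1 higher at an unadjusted p under 0.05 and 0 by limma-voom on recovered reads. Eef1akmt3 had the smallest limma adjusted p among them, 0.0613, at 4.00 and 3.08 FPKM with TGF-β and 5.91 and 5.88 with siHoxc8.

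Initiation factors of nearly every role were among those raised, at shares above and below the 28.1% of all genes. The share was 28.6% of the start codon genes, 33.3% of eIF2, 20.0% of eIF2B and 33.3% of eIF3. It was 45.5% of the cap-binding group, 75.0% of the eIF4E-binding repressors and 33.3% of eIF5A and eIF6. After median-ratio rescaling 3 eIF3 subunits were called higher and 1 lower, and 1 eIF2 gene higher and 1 lower. Of eIF5A and eIF6, 0 were then called higher and 1 lower. Of 12 eIF3 subunits 4 rose, with Eif3b going from 92.7 and 96.5 to 166 and 168 FPKM (0.81 ± 0.14, limma adjusted p = 0.00303), Eif3a from 107 and 107 to 157 and 165 (0.58 ± 0.16, limma adjusted p = 0.0226), and Eif3l and Eif3el1 by 0.52 and 0.85 on the log2 scale. Of 11 genes of the cap-binding group 5 rose: Eif4h from 108 and 113 to 180.4 and 178 FPKM (0.69 ± 0.13, limma adjusted p = 0.00385), Eif4b from 66.1 and 67.0 to 100.5 and 98.5 (0.57 ± 0.10, limma adjusted p = 0.00357), and Eif4e, Eif4a1 and Eif4g1, the 3 core parts of eIF4F, by 0.52, 0.43 and 0.42. After median-ratio rescaling 2 of the 11, Eif4b and Eif4h, were called higher, and Eif4e, Eif4a1 and Eif4g1 were not (limma adjusted p 0.0744, 0.105 and 0.0764). Eif4enif1, which carries eIF4E to the nucleus and to decay bodies, rose from 12.9 and 10.1 to 22.8 and 22.3 (0.92 ± 0.12, limma adjusted p = 0.00103), and the repressors Eif4ebp1 (0.57) and Eif4ebp2 (0.45) rose with the factor they bind. Eif1ad went from 29.4 and 34.4 to 61.6 and 59.6 FPKM (0.91 ± 0.15, limma adjusted p = 0.00266), and Eif1ax, Eif2a, Eif2b1, Eif2s3 and Eif5a rose by 0.60, 0.74, 0.66, 0.62 and 0.41. Eif2s1 was not called (0.37 ± 0.21, limma adjusted p = 0.2), nor were Eif6 (0.757), Eif5a2 (0.177), Eif4a2 (0.803) and Eif2b5 (0.948).

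The 3 falls were Eif4e3, Eif2b4 and Eif4g3. Eif4e3 dropped from 7.85 and 6.72 FPKM with TGF-β to 1.37 and 1.49 with siHoxc8 (-1.77 ± 0.13, limma adjusted p = 8.95e-05), and against the control it was 7.82-fold lower (-2.33 ± 0.13, limma adjusted p = 2.44e-05). Its ratio to Eif4e in FPKM went from 0.402 and 0.396 in the control to 0.0272 and 0.0310. Eif2b4, the delta subunit of the exchange factor, was at 18.6 and 21.4 FPKM with TGF-β, 20.3 and 29.8 with MetR and 10.6 and 12.8 with siHoxc8 (-0.73 ± 0.18, limma adjusted p = 0.0148; 0.0862 to 0.0988 without TGF-β replicate 2 or siHoxc8 replicate 1). Eif4g3 went back to 26.4 and 27.1 FPKM (-0.68 ± 0.13, limma adjusted p = 0.0053), near its control level of 30.1 and 27.6.

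Of the 24 calls, 9 were kept under all 18 alternatives: Eef1e1, Eef2, Eif1ad, Eif3b, Eif4b, Eif4enif1 and Eif4h, raised, and Eif4e3 and Eif4g3, lowered. The number raised fell to 7 without siHoxc8 replicate 1, 10 without siHoxc8 replicate 2 and 12 without TGF-β replicate 1, and it rose to 32 without either MetR library, where 5 fell. Calls lost when siHoxc8 replicate 1 was left out include Eif2s3 (limma adjusted p 0.0626), Eif3l (0.0566), Eif4g1, Eif4e, Eif4a1, Eif3a, Eif5a and Eef1a1, for which the range over the libraries that ended the call was 0.0628 to 0.0821, 0.0581 to 0.145, 0.0664 to 0.152, 0.0814 to 0.111, 0.0524 to 0.178 and 0.0846 to 0.185. The same range was 0.0585 to 0.0920 for Eif3el1, 0.0717 to 0.0936 for Eif4ebp1, 0.0514 to 0.117 for Eif4ebp2, 0.0538 to 0.120 for Eif1ax, 0.0601 to 0.172 for Eif2a and 0.0573 to 0.0590 for Eif2b1.

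MetR and siHoxc8 were then compared directly, since both groups had TGF-β and both had little Hoxc8 mRNA. Relative to siHoxc8, 9 translation factors were higher with MetR and 19 lower, beside 29.3% and 24.9% of all genes tested; the median log2 difference was -0.27, beside 0.06 over all genes. After rescaling, 8 were higher and 24 lower, against 27.6% and 27.0% of all genes. Lower were 4 elongation factors, Eef1g (-1.52), Eef1b2 (-1.35), Eef1a1 (-1.35) and Eef2 (-1.14), with a limma adjusted p from 9.56e-05 to 0.000492. Among initiation factors Eif2s3 (-1.35 ± 0.13, limma adjusted p = 0.000156), Eif3el1 (-1.17), Eif2a (-1.16) and Eif3f (-0.97) were lowest, and 7 of 12 eIF3 subunits, 3 of 6 eIF2 genes and 3 of 11 of the cap-binding group were lower. Eef1aknmt (1.19 ± 0.19, limma adjusted p = 0.00163) and Eif2b4 (1.02 ± 0.18, limma adjusted p = 0.00257) were the 2 highest with MetR, followed by Eif1a (0.76), Eef1akmt4 (0.74), Eif1 (0.60), Eif2b2 (0.49), Eif4e3 (0.48), Eif6 (0.48) and Eef2k (0.41). Eif4ebp1, raised against TGF-β in both groups, was not called between them (0.25 ± 0.15, limma adjusted p = 0.183), nor was Eef1e1 (0.05 ± 0.16, limma adjusted p = 0.814).

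Of these 28 calls, 15 were kept under every alternative, among them the 4 elongation factors, Eif2s3, Eif3f, Eif2b4 and Eef1aknmt. Without MetR replicate 2, 36 were lower, and without MetR replicate 1, 15 were higher; without siHoxc8 replicate 1, 12 were lower and 4 higher, and without siHoxc8 replicate 2, 3 were higher. Eif1a, Eif1 and Eif4e3 lost the call without siHoxc8 replicate 1 or 2 (limma adjusted p 0.0769 to 0.108 for Eif1a, 0.0572 to 0.110 for Eif1, which was also lost without MetR replicate 2, and 0.0587 to 0.0925 for Eif4e3), and Eef1akmt4 without siHoxc8 replicate 2 (0.0534). Eif6 and Eef2k lost it without 7 of the 8 libraries in turn (0.0502 to 0.163 and 0.0603 to 0.205).

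Both treated groups were also set against the control, which shares its libraries between these comparisons. With TGF-β and MetR, 17 translation factors were above the control and 21 below, beside 28.0% and 29.3% of all genes, and 26 of the 38 calls were kept under all 18 alternatives. The lowest were Eef1a1 (-1.88), Eef1g (-1.86), Eif4e3 (-1.84), Eif3f (-1.81), Eef2k (-1.44), Eif2s3 (-1.27), Eef1b2 (-1.11) and Eif2a (-1.10), and the highest Eef1akmt4 (2.18), Eif4ebp1 (1.43), Eef1e1 (1.28), Eef1aknmt (1.20), Eif1a (1.06), Eif1 (0.95), Eif2b3 (0.85) and Eif2b1 (0.72). Eef1akmt4, at 4.27 and 4.12 FPKM in the control and 19.7 and 25.8 with MetR, was 5.42-fold higher (2.18 ± 0.18, limma adjusted p = 6.64e-05), and Eef1a1 was 3.69-fold lower (-1.88 ± 0.13, limma adjusted p = 3.53e-05). Without MetR replicate 1, 27 were above the control, and without control replicate 2, 11. Eif2b3 lost its call without either control library (0.0638 to 0.101).

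With TGF-β and siHoxc8, 20 were above the control and 7 below, beside 21.7% and 27.0% of all genes, and 14 of 27 calls were kept. The 7 below were Eif4e3 (-2.33), Eef2k (-1.85), Eif3f (-0.84), Eef2kmt (-0.80), Eef1a1 (-0.54), Eif4ebp2 (-0.49) and Eif4b (-0.34). Those furthest above were Eef1akmt4 (1.44), Eef1e1 (1.23), Eif4ebp1 (1.17), Eif2b3 (1.03), Eif1ad (1.02), Eif3b (1.01), Eef1akmt3 (0.94) and Eif5a (0.79). Eef2, low with TGF-β alone, was at 1604 and 1560.5 FPKM against 1308 and 1319 in the control and was not called (0.27 ± 0.10, limma adjusted p = 0.0535). Leaving out control replicate 1 or siHoxc8 replicate 1 left 11 above and 3 below, and leaving out control replicate 2 or siHoxc8 replicate 2 left 13 above and 3 or 4 below. Leaving out either MetR library gave 29 above and 12 below. Eef1a1 (limma adjusted p 0.0683 to 0.0879), Eif4ebp2 (0.0689 to 0.0874), Eif4b (0.112 to 0.146) and Eef1akmt3 (0.0507 to 0.0594) were lost without any single control or siHoxc8 library, Eef2kmt without either control library or siHoxc8 replicate 1 (0.0712 to 0.118), and Eif2b3 without control replicate 1 or either siHoxc8 library (0.0517 to 0.0683).

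A further 18 genes were called in none of the 3 main comparisons by limma's test. They were Eif1b and Eif5b of the start codon group, Eif2s1, Eif2s2 and Eif2s3y of eIF2, Eif2b3 and Eif2b5 of eIF2B, Eif3d, Eif3g, Eif3j and Eif3m of eIF3, Eif4a3 (the helicase of the exon junction complex) and Eif4g2 (a scaffold that does not bind eIF4E), Eif6, Eef1d and the methyltransferases Eef1akmt1, Eef1akmt2 and Eef1akmt3. Eif4g2 was among the steadiest, at 153 and 148 FPKM in the control, 144 and 144 with TGF-β, 146 and 168 with MetR and 160.4 and 162 with siHoxc8. Eif4a3 ranged from 96.1 to 125 FPKM over the 8 libraries. Eif2b5 lay between 19.5 and 24.4 FPKM, and both ends of that range were MetR libraries.

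Genes outside the set that act on these factors were read from lists by function. The shares of all genes tested to set beside their counts are those given above: 34.8% rose and 19.0% fell with MetR against TGF-β (median 0.18), 28.1% and 15.7% with siHoxc8 against TGF-β (0.13), and 10.3% and 28.6% with TGF-β against control (-0.19). Of 6 eIF2 kinases and phosphatase subunits, 3 rose with MetR against TGF-β and 3 were not called. Ppp1r15a, the stress-induced subunit that brings the phosphatase to eIF2, was at 30.9 and 34.7 FPKM in the control, 34.9 and 35.7 with TGF-β, 136 and 271 with MetR and 32.5 and 32.5 with siHoxc8 (2.41 ± 0.27, limma adjusted p = 0.000419). Its constitutive counterpart Ppp1r15b (0.52) and the heme-regulated kinase Eif2ak1 (0.38) rose too, while Eif2ak4, the kinase that senses uncharged tRNA, was not called (-0.11 ± 0.15, limma adjusted p = 0.555), nor were Eif2ak2 (0.681) and Eif2ak3 (0.621). In TGF-β against control Eif2ak4 fell (-0.53 ± 0.15, limma adjusted p = 0.0275), and in siHoxc8 against TGF-β the endoplasmic reticulum stress kinase Eif2ak3 fell (-0.60 ± 0.11, limma adjusted p = 0.00452). After median-ratio rescaling Ppp1r15a was the 1 gene of the 6 called with MetR, and Eif2ak4 was not called with TGF-β (-0.34, limma adjusted p = 0.125).

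Of 9 genes that build the modified residues diphthamide (on eEF2) and hypusine (on eIF5A), 6 rose with MetR and 3 were not called, with a median log2 fold change of 0.84, and 6 also rose after rescaling. The rises were led by Dph5 (1.48 ± 0.21, limma adjusted p = 0.000962), a methyltransferase of the diphthamide pathway, by Dohh, which completes hypusine, from 57.7 and 69.7 to 148 and 184 FPKM (1.37 ± 0.14, limma adjusted p = 0.000272), and by Dph2 (1.09 ± 0.13, limma adjusted p = 0.00055). Dhps, which starts hypusine synthesis, was not called with MetR (0.03 ± 0.11, limma adjusted p = 0.833) and rose with siHoxc8 (0.85 ± 0.11, limma adjusted p = 0.001), where 4 of the 9 rose and Dph1 fell (-0.33). In TGF-β against control 1 of the 9, Dohh, rose (0.60 ± 0.14, limma adjusted p = 0.0122). Of 9 mitochondrial translation factors, 7 rose with MetR (5 after rescaling) and 2 were not called (median 0.75), led by the initiation factors Mtif2 (1.11 ± 0.24, limma adjusted p = 0.00621) and Mtif3 (1.06 ± 0.16, limma adjusted p = 0.00126) and the elongation factor exchanger Tsfm (1.01 ± 0.18, limma adjusted p = 0.00236). With TGF-β against control 4 of these 9 fell, among them Mtif2 (-0.81), Gfm2 (-0.63) and Mrrf (-0.60), and with siHoxc8 against TGF-β 3 rose, Mtif3 (0.51), Mtrf1l (0.39) and Gfm1 (0.37). After rescaling 2 of the 9 fell with TGF-β, Gfm2 and Mrrf, and all 3 rises with siHoxc8 lost their calls (limma adjusted p 0.096 for Mtif3, 0.130 for Mtrf1l and 0.0971 for Gfm1). The cytosolic elongation factors Eef1a1 and Eef2 fell in the same MetR libraries in which the mitochondrial counterpart of eEF1A, Tufm, went from 44.6 and 53.9 to 84.0 and 109 FPKM (0.95 ± 0.14, limma adjusted p = 0.00133).

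Of 9 kinases and regulators acting on eIF4E, eIF4B and the 4E-binding proteins, 3 rose with MetR and 6 were not called: the eIF4E kinase Mknk1 (1.03), the S6 kinase Rps6kb2 (0.70) and the mTORC1 subunit Rptor (0.68). Mtor itself was not called with MetR (0.06 ± 0.14, limma adjusted p = 0.733). After rescaling 3 rose and 2 fell with MetR, and Mknk1 was not called with TGF-β. With siHoxc8 1 rose, Mknk2 (0.61), and 2 fell, Rps6kb1 (-1.16 ± 0.14, limma adjusted p = 0.000649) and Rps6kb2 (-0.47); with TGF-β 3 fell, Rps6ka3 (-1.35 ± 0.13, limma adjusted p = 0.000375), the eIF4A inhibitor Pdcd4 (-0.64) and Mknk1 (-0.47). Of 12 termination, recycling and poly(A)-binding genes, 5 rose and 3 fell with MetR, led by the ribosome recycling factor Abce1 (0.95 ± 0.16, limma adjusted p = 0.00211), the TOP mRNA binder Larp1 (0.64 ± 0.16, limma adjusted p = 0.0104) and Larp4b (0.62). After rescaling 2 of the 12 rose with MetR, Abce1 and Larp4b, and 3 fell, and Larp1 was not called (0.43, limma adjusted p = 0.0539). Larp1 was also raised with siHoxc8 (0.75 ± 0.16, limma adjusted p = 0.00692), together with Abce1 (0.65) and Pabpc1 (0.61), where 5 rose and 1 fell. With TGF-β against control 1 of the 12, the reinitiation factor Denr, rose (1.89 ± 0.33, limma adjusted p = 0.00408) and 2 fell, Paip2b (-0.72) and Larp4b (-0.47), the latter not called after rescaling.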

How the data were processed

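The series holds 28 samples, of which the 8 RNA-seq libraries were used and 20 chromatin and input samples were not analysed here. The authors deposited 1 table of FPKM values for all 8 libraries. Per the submitters' processing notes, the tools named are featureCounts, deepTools, Bowtie2 2.3.5.1 and Trim Galore, and the build is rn6. Their roles, the annotation and the strand setting (not given in the sources used here) are unknown. Multiplying out the FPKM steps gave whole reads for 100.0% of genes above 0 (tolerance 0.02 reads), and these give the depth of 15118113 to 20146870 reads per library, which covers counting error only. Values were tested as log2(FPKM + 1), and this scale understates changes of genes near 1 FPKM. Genes reaching 1 FPKM in 2 or more of the libraries (12315) entered limma 3.58.1 (R 4.3.3), fitted over all 8 libraries with a variance trend (4 residual degrees of freedom, 3.47 prior), two-sided, with Benjamini-Hochberg adjustment over all genes tested in each of the 6 comparisons and a threshold of 0.05. A value after ± is the standard error of a log2 fold change. The 6 comparisons share libraries. A library outside the 2 groups compared enters a comparison through the shared estimate of spread and leaves its fold changes as they are. This holds for the counts given without a MetR library in comparisons that do not include MetR. Tested on simulated data, the fit made more false calls than its threshold allows and missed most of the changes where few genes were changed. Where a large share was changed, it made fewer false calls than allowed. The libraries here differed in spread between groups. Over all genes tested, the log2 standard deviation was 0.177 in the control, 0.223 with TGF-β, 0.307 with MetR and 0.186 with siHoxc8. The rate of false calls in these libraries was not tested. Groups came from the labels. Alternatives (18) changed the pseudocount, filter, scaling, block, variance trend, samples or tool.

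Genes were named by a rule: 16 listed factors, up to 8 called rises and falls by size in each comparison, and within each role the highest, the lowest and the most changed; of the other lists, up to 3 called genes each. The members and lists were chosen with earlier results of these data known, and Eif3el1 was put among the eIF3 subunits after the table was seen. Genes named to account for all 62 or for lost calls go beyond this rule. Of the 62 symbols 61 matched a current RefSeq symbol and 1 an older one. Promoter windows came from RefSeq (GRCr8), for genes with 1 listed start.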

Additional observations from a re-analysis of the deposited data

How the results depend on the processing

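Counts of called translation factors moved by more than 1.5 times under these settings. For TGF-β against control, the number raised (4) was 14 after median-ratio rescaling, 7 after quantile normalization and 15 with the trend on transcript length removed, and the number lowered (11) was 6 without a filter on low values, 6 after rescaling and 7 with the length trend removed. For MetR against TGF-β, the number raised (14) was 9 with only the 2 groups compared and 9 with the length trend removed. For siHoxc8 against TGF-β, the number raised (21) was 13 after rescaling, and the number lowered (3) was 7 after rescaling, 7 after quantile normalization and 9 with the length trend removed. With only the 2 groups compared, siHoxc8 against control lowered 16 (7), and MetR against siHoxc8 raised 4 (9); the latter was 5 without the filter. The cause of these shifts was not tested.

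Leaving out 1 library at a time gave 1 to 10 raised and 5 to 16 lowered for TGF-β against control, 10 to 27 and 13 to 18 for MetR against TGF-β, 7 to 32 and 2 to 5 for siHoxc8 against TGF-β, 11 to 27 and 17 to 22 for MetR against control, 11 to 29 and 3 to 12 for siHoxc8 against control, and 3 to 15 and 12 to 36 for MetR against siHoxc8; where a group was left with 1 library, that library is assumed to vary like the other groups.

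The direction turned in 3 log2 fold changes called either as reported or under the alternative: Eef2 in MetR against TGF-β after quantile normalization (0.051, no longer called), Eif3j in MetR against siHoxc8, which ran from -0.35 without MetR replicate 2 to 0.60 without MetR replicate 1, and Eif4g1 in TGF-β against control with the length trend removed (0.26). As reported, Eif3j and Eif4g1 were not called in these comparisons.

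With the replicate number as a block the counts raised and lowered were 4 and 13, 16 and 15, and 25 and 3 for the 3 main comparisons, 17 and 21, and 22 and 8 against control, and 9 and 19 for MetR against siHoxc8, all within 1.5 times. The differences between replicates correlated at 0.20 between TGF-β and MetR and at -0.02 to 0.02 between the other groups. The labels tie no number to a batch, and whether TGF-β and MetR libraries of the same number share one was not tested.

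The planned count models (edgeR and DESeq2 on recovered reads) were not run, since the deposited values are FPKM; limma-voom on recovered reads and the removal of the length trend were added after the data were seen. With 2 libraries a group, the precision rests on few degrees of freedom, and at least 25 reads stood behind every tested factor in each library.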
